A study of Homo sapiens with 18 samples.

Results

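The data described here are the signals of 833 probe sets out of 54675 on the Affymetrix HG-U133 Plus 2.0 array. They were chosen by name and annotation alone: the name ends in _x_at, and the annotation used pairs the probe set with no gene symbol. Of 4207 probe sets with this ending, the other 3374 have a symbol. The probe sets taken for comparison are 9841 without a symbol whose name ends in plain _at. Biotin-labelled cRNA from 1 RNA sample of the cell line FTC133 was hybridized to 3 arrays. All 18 scans therefore carry the same RNA, and differ in array, staining, washing and the number of earlier scans. The paper names no treatment of the cells. Scans A1 to A4 of array A, the first series, followed 0, 2, 7 and 17 stringent wash cycles. Array B had 2 stringent cycles before its first scan and was scanned after a total of 2, 4, 9 and 19 (B1 to B4), and array C was scanned once after the standard 6 (C1). All 3 arrays were then stained again and taken through a second series, with totals of 17, 19, 24 and 34 cycles for A5 to A8, of 21, 23, 28 and 38 for B5 to B8 and of 12 for C2. A second staining thus always came with a longer history of washing, and the 2 cannot be told apart except between scans A4 and A5, which share a total of 17 cycles. The paper also reports that a small share of probes reached the upper limit of the scanner in the second series, which it did not see in the first. The intensities of such probes are cut off at that limit.

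FTC133 cells derive from a human follicular thyroid carcinoma. On this kind of array a transcript is probed by short oligonucleotides in pairs, a perfect match (PM) and a mismatch (MM) probe, and MAS5 combines the pairs of a probe set into 1 signal. The ending _x_at was given by the manufacturer where no set of probes could be found that is unique to the transcript or shared in full by a family, so that some probes may also bind other transcripts. Plain _at marks probe sets designed against a single transcript. Stringent washing at low salt removes weakly bound and partly mismatched targets, which is why probe sets with possible cross-hybridization are of interest in an experiment on washing. The 833 probe sets are called by their names on the array, since the annotation used lists no gene for them. Their probe sequences were not used here.

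Most of the 833 probe sets were dim, but their brightest reached the top of the array. All probe sets were ranked by their MAS5 signal on scan C1, the standard protocol, and cut into 10 deciles of equal size. The lowest 6 deciles held 572 of the _x_at probe sets without symbol, or 68.7%, against 86.8% of the plain ones without symbol. The highest 2 deciles held 82 of them (9.84%), against 2.80% of the plain ones and 33.3% of the _x_at probe sets with a symbol. By level the group thus lay between these other 2 groups. From the lowest to the highest decile it had 106, 87, 95, 95, 95, 94, 104, 75, 38 and 44 members. In the lowest decile their C1 signals were 0.535 to 5.32, in the fifth 34.0 to 50.6, and in the highest 838 to 24621.1. The median C1 signal was 39.8, against 24.0 for the plain probe sets.

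The level went with the part of the array design that the number of a probe set shows. Names of 6 digits starting with 20 or 21, which go back to an earlier pair of arrays as do all names of 6 digits, made up 252 of the 833, with a median C1 signal of 96.8. Those starting with 23 or 24 were 417 with a median of 28.5, those starting with 22 were 48 with 55.6, and the 7-digit names, which were added for this array, were 116 with 24.0. Of the 44 in the highest decile 37 were from the 20 or 21 group, 6 from the 22 group and 1 from the 23 or 24 group. Among plain probe sets without symbol the group starting with 20 or 21 held 1153 of 9841 and had a median of 26.1, well below the 96.8 of the _x_at ones. No test was made of this difference. None of the 833 is an Affymetrix control, whereas 53 of the plain probe sets are. Of these controls 15 lay in the highest decile, among them the brightest plain probe set with a C1 signal of 25171.1.

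On all 18 scans the 833 probe sets were brighter by their median. The median was 124.3, 90.7, 79.5 and 72.3 on scans A1 to A4, where the plain probe sets had 80.6, 58.2, 48.2 and 46.9. Scans B1 to B4 gave 49.8, 47.7, 48.7 and 43.8 against 31.4, 29.9, 28.3 and 26.2. After the second staining they were at 77.2 to 106.0 against 47.6 to 61.3 on array A and at 44.4 to 54.3 against 24.7 to 31.3 on array B, and scan C2 gave 46.2 against 27.7. Part of this gap was the different spread over the deciles. At equal decile of C1, weighted by the number of _x_at probe sets in each decile, the remaining difference on the 17 other scans was 0.13 to 0.30 on the log2 scale with a median of 0.22, and it was above 0 on every scan. On scan C1 itself, where the deciles were cut, it was 0.06. Without the highest decile it was 0.07 to 0.25, and in 50 equal bins of C1 0.03 to 0.28. The _x_at probe sets with a symbol, set against plain ones with a symbol in the same way, were higher by 0.14 to 0.36. They were also higher by 0.17 on scan C1 itself, so that the deciles did not make these 2 groups equal there. At equal decile the _x_at probe sets with and without a symbol thus stood higher on the 17 other scans. On scan C1 the difference without a symbol was -0.002 when the highest decile was left out. The deciles were cut on this single scan, whose spread alone can leave a gap on other scans between groups of unequal level. The other scans share arrays and these deciles, so that their equal sign is not independent evidence. Whether the excess goes with the name ending was not tested. The deciles are coarse at the top: within the highest decile the 44 probe sets had a median C1 signal of 4044, against 1793 for the 126 plain ones, and stood above them by 0.82 to 1.71 on the 17 other scans.

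The 6 brightest on scan C1 were 206559_x_at with 24621.1, 221798_x_at with 23154.4, 213801_x_at with 21447.8, 211296_x_at with 18850.5, 211720_x_at with 18245.1 and 201665_x_at with 17888.3. They ranked 14, 27, 67, 124, 138 and 145 of all 54675 probe sets. The signal of 206559_x_at was 9207.2, 14103.5, 19843.4 and 25125.4 on scans A1 to A4 and 10133.8, 11428.7, 13462.9 and 14711.5 on scans A5 to A8. On array B it went through 14757.0, 22992.1, 30677.9 and 38367.7 and then 8580.0, 13212.4, 15616.3 and 18601.3, and C2 gave 19426.0. It was thus higher after each washing step of arrays A and B in both series. The 3 probe sets in the middle of the highest decile, 211733_x_at, 217725_x_at and 218580_x_at, had C1 signals of 3812.0, 4275.2 and 3473.8. The signal of 217725_x_at was 2968.8, 3208.9, 3360.8 and 3378.9 on scans A1 to A4, a much smaller range than that of the brightest ones.

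The signals have been scaled by the authors so that each scan has the same trimmed mean, so a loss or gain common to all probe sets is removed. Washing and the second staining thus show as changes of probe sets against each other. The paper reports a marked rise of array intensities after the second staining, which these scaled signals do not show. A relative change is therefore used here, the log2 change of a probe set minus the median log2 change of all 54675. From 0 to 17 additional cycles that median itself moved by -0.61 (array A) and -0.27 (array B) in the first series and by -0.27 and -0.21 in the second. The median relative change of the 833 probe sets in the first series was -0.15 (array A) and 0.04 (array B), and in the second -0.14 and -0.0025. The plain probe sets without symbol stood at -0.50, -0.04, -0.24 and -0.09 in the same order. The _x_at probe sets thus stood above the plain ones on each array in both series, by 0.34, 0.08, 0.10 and 0.08.

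Matching on brightness reduced this gap in 3 of the 4 cases. At equal decile of C1 the difference between the 2 groups in the first series was 0.11 for array A and 0.10 for array B, or 0.104 ± 0.0071 (SD, n = 2 arrays). Under other settings this SD was between 0.0032, with deciles cut within both groups, and 0.177, with probe sets ranked by scan A1. For the second series the difference was 0.01 and 0.05, or 0.0267 ± 0.0293 (SD, n = 2 arrays), which is smaller than its spread. For the _x_at probe sets with a symbol it was 0.14 and 0.11 in the first series and 0.09 and 0.10 in the second. No test across the 2 arrays was made. By decile the difference had no fixed sign: in the first series it was positive on both arrays in 5 of 10 deciles, and in decile 4 it was -0.17 on A but 0.38 on B, and in decile 6 0.07 on A but -0.22 on B. In the highest decile it was 0.47 and 0.36 in the first series and 0.25 and 0.21 in the second, larger than in most deciles below. There the compared probe sets differed in brightness too. Among those with a C1 signal above 10000, 14 in each group, the median relative changes in the first series were 1.98 against 2.01 (array A) and 1.60 against 1.57 (array B), and in the second 0.98 against 0.86 and 0.77 against 0.79. Without the highest decile the matched difference was 0.0871 in the first series and 0.0153 in the second.

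No probe set passed the limma test of 17 against 0 additional cycles in either series, at an adjusted p under 0.05 and with the array as a block. The count was 0 of 833 higher and 0 lower, and over all probe sets 0.0% were higher and 0.0% lower in both series. At an unadjusted p under 0.05, 32 of the 833 were higher and 119 lower in the first series, or 3.84% and 14.3%, against 3.5% and 13.9% of all probe sets. The second series gave 29 higher and 113 lower, or 3.48% and 13.6%, against 2.55% and 11.6% of all. The shares lay near those of the array as a whole. The plain probe sets without symbol had 1.56% higher and 16.4% lower in the first series, and the _x_at probe sets with a symbol 10.8% and 11.4%.

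When limma moderated the variances robustly and along a trend with level, it called 26 of the 833 higher and 9 lower in the first series, where 3.57% of all probe sets were higher and 1.21% lower. For the second series it called 17 higher and 6 lower, against 2.38% and 0.448% of all. All 26 and all 17 that were higher lay in the highest decile, with C1 signals of 1898 or more and of 2771.1 or more, whereas 0 of the 9 and 0 of the 6 that were lower lay there. Bright members thus rose against the dim ones on these scaled scans, as did 46 and 37 plain probe sets of the highest decile in the 2 series. The difference of the washing change between the series was tested over 16 scans. It gave 0 calls, with 0.0% of all probe sets higher and 0.0% lower, and at an unadjusted p under 0.05 51 of the 833 were higher and 26 lower in the second series, where 4.91% and 2.58% of all were. With the trend in the variance 1 of the 833 was called higher and 11 lower (0.12% and 1.32%), where 0.0384% and 1.38% of all probe sets and 0.0296% and 5.84% of the _x_at ones with a symbol were.

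The members with the highest mean relative change by washing, among those brighter on C1 than the median of all probe sets and of one sign on both arrays in both series, were 217092_x_at, 221798_x_at, 213932_x_at, 211487_x_at and 215823_x_at. All of them belonged to the highest decile. The signal of 213932_x_at was 2093.8, 3562.5, 7189.1 and 8838.5 on scans A1 to A4 and 3497.1, 5372.1, 8523.5 and 12463.3 on scans B1 to B4, higher at each step. Its relative changes were 2.69 and 2.10, and 0.82 and 1.41 in the second series, with a mean of 1.76. For 215823_x_at the 4 values were 2.35, 1.65, 1.01 and 1.06, and for 211487_x_at 2.01, 1.60, 1.10 and 1.99. In the first series those of 211487_x_at were close to the medians of 1.98 and 1.60 for all members above 10000, and those of 213932_x_at, which is dimmer on C1, lay above the highest of these members, 2.35 and 1.65. With quantile normalization, which gives every scan the same distribution, the mean relative change of 215823_x_at was 0.21, that of 211487_x_at 0.41 that of 213932_x_at 0.76 and that of 221798_x_at 1.48.

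By the same rule the 5 with the lowest mean were 240025_x_at, 216376_x_at, 227509_x_at, 1566096_x_at and 224105_x_at, at -2.10, -1.87, -1.65, -1.57 and -1.43. They had C1 signals of 54.7 to 136.3, in the sixth and seventh decile. The signal of 216376_x_at on scans B1 to B4 was 109.8, 69.9, 23.2 and 5.79, and that of 224105_x_at 56.9, 26.2, 50.3 and 6.76. On array A 224105_x_at had 266.4, 69.9, 93.3 and 80.4. These signals were lower after washing, in uneven steps, and several stood higher again on the first scan after the second staining. Scan B5 gave 120.9 for 224105_x_at and 113.4 for 240025_x_at, which had stood at 7.19 on scan B4. None of the 5 passed limma's test in either series (adjusted p = 0.197 to 0.255 in the first and 0.329 to 0.353 in the second). These 10 were picked as the extremes of the measure that is quoted for them, so that their values are a description.

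On these scaled signals the 833 probe sets as a group moved little with the second staining. Each scan of the second series was paired with the scan of the same array after the same number of additional cycles in the first, which gives 9 pairs. The median relative change of the 833 was -0.03 to 0.19 over the pairs, and that of the plain probe sets -0.23 to 0.13. At equal decile of C1 the difference was 0.06, 0.11, 0.03 and 0.01 in the 4 pairs of array A, 0.07, -0.01, -0.01 and 0.06 in those of array B and 0.15 on array C. It was above 0 in 7 of 9 pairs, with a mean of 0.0537 ± 0.0534 (SD, n = 9 pairs), about as large as the spread between single pairs. The pair of array C, with the largest difference, starts from scan C1, on which the deciles were cut. Without array C the mean was 0.0417 ± 0.0420 (SD, n = 8 pairs). The pairs of an array are not independent, since they share a hybridization. For the _x_at probe sets with a symbol the mean was 0.025 ± 0.0294 (SD, n = 9 pairs). A single probe set varied far more than this, with a median SD over the 9 pairs of 1.03 for the 833 and of 1.18 for the plain ones. The spread was smaller at higher level, with a median SD of 1.55 in the lowest decile of C1, 0.733 in the seventh and 0.303 in the highest.

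The sign of the difference went with level. In the highest decile the 44 _x_at probe sets stood below the 126 plain ones in all 9 pairs, by 0.04 to 0.32 with a mean of 0.11. The 2 groups were not equally bright there, with a median C1 signal of 4044 against 1793. In the part of that decile not above 10000, the mean change over the 9 pairs had a median of 0.04 against 0.08. In the third and seventh decile the _x_at probe sets stood above in 8 of 9 pairs, with means of 0.20 and 0.18. In the lowest decile they stood below in 8 of 9, with a mean of -0.14. Between scans A4 and A5, which are separated by the staining but by no stringent cycle, the matched difference was 0.02. Between B4 and B5, with 2 cycles between them, it was -0.02.

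In the fit of all 18 scans with the pair as a block, limma called 3 of the 833 higher and 6 lower at an adjusted p under 0.05. This is 0.36% and 0.72%, beside 0.294% and 0.541% of all probe sets, 0.315% and 0.701% of the plain ones without symbol and 0.385% and 0.504% of the _x_at ones with a symbol. The shares of these groups were thus of similar size. At an unadjusted p under 0.05 99 of the 833 were higher and 74 lower, or 11.9% and 8.88%, beside 8.34% and 11.3% of all probe sets and 8.89% and 11.8% of the plain ones. By this count the balance of higher and lower was the opposite of that of all probe sets, and the difference was not tested. With array A or array B left out 0 of the 833 passed, and with array means in place of scans 0 passed too. With array C left out 2 were higher and 7 lower. All scans hold 1 RNA sample, and the p-values therefore speak of technical spread alone.

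The largest fall by far was that of 221798_x_at, the second brightest of the group. Its signal was 9789.6, 15010.8, 20168.6 and 25210.0 on scans A1 to A4, and 159.7, 345.9, 1798.8 and 666.7 on scans A5 to A8. On array B it went through 16068.3, 24194.4, 31767.5 and 39488.4 in the first series and 19.3, 241.1, 3428.8 and 173.5 in the second, and on array C from 23154.4 to 121.8. The lowest value of the first series, 9789.6, lay above the highest of the second, 3428.8, so that the 2 series did not overlap. The mean change over the 9 pairs was -6.12 ± 0.631 (SE) on the log2 scale, a signal 69.5-fold lower after the second staining (adjusted p = 0.0170, limma). The fall was present between A4 and A5, which share a total of 17 cycles, with A5 7.60 log2 units below A4 relative to all probe sets. B5, which also followed 2 more stringent cycles, stood 11.2 below B4. Within the second series the signal was highest after 7 additional cycles on both arrays and lower again after 17. Over all 54675 probe sets, this was the largest fall on each array between these scans.

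Of the other members past the threshold, 211487_x_at and 222229_x_at were bright as well. The signal of 211487_x_at was 8680.6, 13343.2, 18777.0 and 22970.1 on scans A1 to A4 and 4630.0, 7061.9, 11229.4 and 8254.8 on A5 to A8. On array B it was 13217.1 to 33387.9 in the first series and 4836.8 to 16582.7 in the second, and on array C 17673.7 and 7699.8. The 2 series overlapped over all scans, but within each of the 9 pairs the second scan was lower, by 0.74 to 1.48 on the log2 scale. The mean was -1.08 ± 0.119 (SE), or 2.11-fold lower (adjusted p = 0.0170, limma). For 222229_x_at scans A1 to A4 gave 7547.2, 11394.5, 13952.6 and 15591.7, scans A5 to A8 4396.0, 6975.7, 10146.1 and 9220.4, and array C 11428.0 and 6376.6. On array B its range was 10099.8 to 24380.2 and then 6934.4 to 12898.3. It was lower in each of the 9 pairs, with a mean of -0.76 ± 0.106 (SE) or 1.70-fold lower (adjusted p = 0.0248, limma). With any single pair left out, 221798_x_at and 211487_x_at passed the threshold each time.

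The remaining 6 were dim or of middle level. The signal of 211691_x_at was 295.1, 274.4, 214.9 and 215.7 on scans A1 to A4 and 117.5, 59.7, 38.9 and 29.5 on A5 to A8. On array B it went through 143.8, 186.6, 164.6 and 160.7 and then 65.2, 71.1, 96.5 and 25.4, and on array C from 24.9 to 7.47. On arrays A and B the series did not overlap, whereas the first scan of array C lay below most scans of the second series. Its change was -1.84 ± 0.239 (SE), or 3.58-fold lower (adjusted p = 0.0209, limma). In decile 7 of C1, 242576_x_at was higher in all 9 pairs by 0.33 to 0.93, with 263.1, 200.3, 186.8 and 207.6 on A1 to A4 and 356.2, 251.8, 311.0 and 342.5 on A5 to A8 (mean 0.62 ± 0.109 SE, adjusted p = 0.0403, limma). In decile 8, 242398_x_at was higher by 0.04 to 1.24, with a mean of 0.71 ± 0.133 (SE, adjusted p = 0.0467, limma), and its signal on array C was 181.1 and then 288.8. The last 3, which were named only after their values were seen, had mean levels below the median of all probe sets: 222308_x_at at -1.80, 1570194_x_at at -1.68 and 244157_x_at at 1.26 (adjusted p = 0.0490, 0.0399 and 0.0247, limma).

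Another bright member, 217092_x_at, had the highest mean relative change by washing and a course of its own in the second series. On array A its signal was 10583.9, 15238.6, 21108.0 and 25239.8 in the first series and 610.8, 1156.4, 16629.7 and 19042.7 in the second. On array B it was 7649.9, 9553.8, 8225.5 and 8936.2, and then 725.6, 744.8, 16685.3 and 17179.5. On both arrays the first 2 scans after the second staining were thus far below, and the next 2, after 7 and 17 additional cycles, were more than an order of magnitude higher. On array C, after 6 cycles before each staining, the signals were 2771.1 and 3260.9. The mean over the 9 pairs was -1.50 ± 0.658 (SE), with 6 pairs lower and 3 higher, and did not pass the threshold (adjusted p = 0.248, limma). In the second series its relative washing change was 5.23 and 4.78, the largest on arrays A and B among the 44 members of the highest decile, and in the first series 1.86 and 0.49. In the second series it did not pass limma's test without a trend (adjusted p = 0.329) but was among the 17 called with a trend in the variance (adjusted p = 8.6e-05). It did not pass for the difference between the series (adjusted p = 0.334).

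Among the brightest members most scaled signals were lower after the second staining. Of the 14 members with a C1 signal above 10000, 11 had a mean change below 0 and 6 below -0.5, with a median of -0.31. Of the 14 plain probe sets without symbol at that level 4 were below 0 and 1 below -0.5, with a median of 0.05, and of 159 _x_at probe sets with a symbol 99 were below 0 and 25 below -0.5. The plain ones at that level include Affymetrix controls, which were not set apart. Of all 414 probe sets at that level 200 were below 0 and 46 below -0.5, with a median of 0.0053, so that lower signals were not general among the brightest. Of the 30 other members of the highest decile 12 were below 0, with a median of 0.04. Over the whole array a mean change below -1 was found in 5.64% of all probe sets, most of them dim, and in 51 of the 833. In the highest decile it was found in 3 of 44 members (221798_x_at, 217092_x_at and 211487_x_at), in 0 of the 126 plain ones and in 11 of all 5467. Among probe sets with a symbol there, it was found in 5 of 678 _x_at ones and in 2 of 2275 plain ones. Whether the missing symbol, the name ending or the position within the top of the range goes with these falls was not tested. Whether the upper limit of the scanner in the second series goes with them was not tested either.

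The scans next to the second staining, a comparison added after the values were seen, show the same members. From A4 to A5 all 14 members above 10000 moved down relative to all probe sets, by 0.90 to 7.60 log2 units with a median of -1.50, and the 14 plain ones by 0.70 to 1.89 with a median of -1.01. From B4 to B5 they moved down by 0.85 to 11.2 with a median of -1.35, and the plain ones by 0.62 to 3.72 with a median of -1.06. All 414 probe sets above 10000 moved down as well between these scans. Their median relative changes were -1.12 (array A) and -1.24 (array B), and the highest among them were -0.41 and -0.62. A relative change below -2, a limit also set then, was reached by 4 of the 14 members (array A) and by 6 (array B), and by 0 and 2 of the plain ones. Of all 414 probe sets at that level 28 and 47 reached it, or 6.76% and 11.35%. Of the 159 _x_at ones with a symbol at that level 10.06% and 15.09% did. Over all levels 37 and 70 of the 833 reached it, or 4.44% and 8.40%, beside 3.86% and 5.93% of all probe sets and 4.56% and 8.64% of the plain ones. On both arrays 221798_x_at, 211487_x_at and 222229_x_at were past this limit, while 201665_x_at passed it on array A, going from 27736.3 to 5249.6, but stood at -1.06 on array B. In contrast, 211720_x_at moved by -0.96 and -0.99, close to the medians of the plain probe sets.

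How far the 2 arrays showed the same changes depended on level as well. Over the 44 members of the highest decile the re-labelling change averaged over the scans of array A correlated with that of array B at r = 0.900 (Spearman 0.429), and without 221798_x_at at r = 0.611 and 0.388 over 43. For the 126 plain ones the values were 0.220 and 0.190, and for the 678 _x_at ones with a symbol 0.532 and 0.419. In the lowest 6 deciles r was between -0.12 and 0.06 for the members. For the members the relative change by washing in the first series correlated between arrays A and B at r = 0.812 in the highest decile. It did so at 0.150 in the ninth and at -0.05 in the second and sixth. In the highest decile r was similar for the other groups, with 0.827 for the plain ones, 0.777 for the _x_at ones with a symbol and 0.728 for all probe sets. These are correlations across probe sets, which share scans and scaling and are not independent replicates. Of all 833, 52.1% had relative changes of equal sign on both arrays in the first series and 56.2% in the second, against 51.5% and 53.5% of the plain ones.

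The groups by name differed in the washing change along with their level. In the first series the median relative change on array A was 0.20 for names starting with 20 or 21 and 0.19 for those with 22, but -0.41 for 23 or 24 and -0.44 for 7 digits. On array B it was 0.10, 0.05, 0.03 and -0.02 in the same order. The order was kept on both arrays in this series, while the range was much smaller on array B. Array B had been washed before its first scan, and whether this goes with the smaller range was not tested. The values in the second series were 0.10, -0.08, -0.28 and -0.24 for array A and 0.04, -0.11, -0.01 and -0.01 for array B. Matched on decile and name group together, the difference from plain probe sets was 0.0691 in the first series and 0.0125 in the second, and 0.0378 for the second staining. Of the 9 members called after the second staining 2 were from the 20 or 21 group, 3 from the 22 group, 3 from the 23 or 24 group and 1 had 7 digits.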

How the data were processed

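Biotinylated cRNA of FTC133 cells was hybridized to 3 arrays and scanned 18 times. The deposited table gives linear MAS5 signals, 1 for each probe set in each scan, which the authors computed from PM and MM intensities (MAS5 version not given in the sources used here) and scaled: after trimming 2% of values at each end the mean was 250.02 to 250.06 in every scan. Signals (lowest value 0.114) were taken as log2 without an offset or filter. No 2 scans were identical. A probe set not among the 42898 listed with a symbol counts as without symbol, though it may have a gene.

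Fits used limma 3.58.1 (R 4.3.3) over all 54675 probe sets with Benjamini-Hochberg adjustment, in Python 3.11.15 with pandas 2.3.3 for the rest. Washing was fitted per series on 8 scans with step as a factor and array as a block, its difference between series on 16 scans, and re-labelling on 18 scans with a block for each pair of scans. A pair is the same physical array, and deviations of paired scans from their series means correlated at 0.221 to 0.626. The matched difference is the mean over deciles of C1 of the difference in medians, weighted by members, given without a test. The fits and the matched difference were tested on simulated data. The number of arrays limits the precision.

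Members named are the 6 brightest on C1, the 3 in the middle of the highest decile, up to 5 rises and 5 falls past the re-labelling threshold (one direction in 9 pairs, mean level above the median), and the 5 highest and 5 lowest in washing (C1 above the median, one sign on both arrays in both series). Members and lists were chosen with earlier results of these data known.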

Additional observations from a re-analysis of the deposited data

Results flagged for a closer look

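With the median change of all subtracted, 211691_x_at had washing changes of opposite sign in the 2 series. They were 0.16 on array A and 0.43 on array B in the first series, and -1.73 and -1.15 in the second, so that the mean of the second lay 1.73 log2 units below that of the first (-1.73). Before that median was subtracted the fitted change was below 0 in both, at -0.15 ± 0.309 (SE) and -1.68 ± 0.548 (SE), and on array A the signal of the first series went from 295.1 to 215.7. limma's test of the difference between the series did not pass the threshold (adjusted p = 0.663). The signal went from 117.5 to 29.5 on array A and from 65.2 to 25.4 on array B in the second series, close to the level of scan C1, 24.9.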

How the results depend on the processing

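The matched washing difference in the first series, 0.104, kept its sign but moved to 0.0668 with quantile normalization, 0.0658 with 16 added to every signal, 0.158 in the brighter 27337 probe sets, 0.0526, 0.161 and 0.141 ranked by the mean of all scans, A1 and B1, and 0.0936 in 50 bins of C1. Chosen after seeing the data, it was 0.0844 in 100 bins, 0.0691 with the name group matched too and 0.0871 without the highest decile. In the second series quantile normalization gave -0.00998 in place of 0.0267, ranking by the mean of all scans 0.0018 and 100 bins -0.00074, so that its sign was not settled. For re-labelling 50 bins gave 0.0330 in place of 0.0537, and the scans next to the second staining 0.0029. Leaving out 1 array gave 0.0994 to 0.109 in the first series, 0.0060 to 0.0475 in the second and 0.0417 to 0.0732 for re-labelling. The cause was not tested.

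Members called for re-labelling, 3 higher and 6 lower, became 6 higher with quantile normalization, 9 with 16 added, 5 in the brighter probe sets, and 19 higher and 18 lower with a variance trend. With no replicate block, so without the pairing of scans, 1 was higher and 2 lower, and with array means 0 and 0. Leaving out a pair or an array gave 0 to 2 higher and 0 to 7 lower, with 0 and 0 without array A or B. The 0 washing calls of the first series became 16 higher and 2 lower in the brighter probe sets, 16 and 21 with washing as a line in log10 cycles, and 26 and 9 with a variance trend, which gave 17 and 6 in the second series and, added after seeing the data, 1 and 11 for the difference between series. Without any single scan the washing counts stayed at 0. Without the replicate block the washing counts within each series stayed at 0; the difference between series was not fitted without it. Of 86 values of named members under other settings, 80 kept direction and call, 4 washing values were smaller by more than their spread with quantile normalization, and 2 that were far from the threshold turned sign with it: 211733_x_at to -0.15 and 217725_x_at to -0.0949.

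With 1 RNA sample and 3 arrays, neither the spread between samples nor the part of cross-hybridization in any signal can be measured here, and for dim members the spread between pairs, a median SD of 1.55 in the lowest decile, limits what can be seen of a single probe set.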
